A study of Mus musculus with 13 samples.

Results

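Steroid and retinoid X receptors are nuclear receptors, transcription factors that are switched on by a small lipophilic ligand. The 8 genes described here were Esr1 and Esr2 (estrogen receptors α and β), Pgr (progesterone receptor), Nr3c1 (glucocorticoid receptor), Nr3c2 (mineralocorticoid receptor) and Rxra, Rxrb and Rxrg (retinoid X receptors α, β and γ). A peak was counted for a gene when the authors' annotation named that gene as the nearest transcription start and placed the peak within 100 kb of it. This gave 258 of the 538751 peaks in 12 lists. Peaks of the 4 libraries of an antibody that shared at least 1 bp were merged into regions, which left 92 of 186391 regions. Of these, 11 of 8602 were SMAD2/3 regions, 44 of 124781 were FOXL2 regions and 37 of 53008 were H3K27ac regions. The regions were chosen by the deposited peak positions, and the set of genes was chosen by results of these same lists, among them the peak calls upstream of Esr2 and Rxra, so every value below is a description and carries no test.

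Chromatin immunoprecipitation with sequencing was done in LβT2 cells, a mouse pituitary tumour line of the gonadotrope type, the cells that make the gonadotropins. All cells carried a stably transduced, doxycycline-inducible FLAG-tagged mouse FOXL2, a forkhead transcription factor, and all received doxycycline for 48 h, so the vehicle group held the induced factor as well. After 2 h in medium with 2% serum the exposure to vehicle or activin A (1 nM) lasted 1 h. SMAD2/3, the FLAG tag (called FOXL2 here) and acetylated lysine 27 of histone H3 (H3K27ac, found at promoters and enhancers that are in use) were the targets, each precipitated from 2 samples per treatment, and every sample was a pool of 3 plates. The labels do not say whether the samples of a group were separate cultures or whether the line is a single clone. The FLAG antibody saw only the introduced FOXL2 and not the cells' own. A Protein-A control sample was not analysed here.

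The peak lists do not give the number of reads, so depth is unknown and the length of each list stands in for it. SMAD2/3 gave 605 and 144 peaks in the vehicle lists and 7784 and 5970 in the activin lists, while the FOXL2 lists ran from 83834 to 97701 and the H3K27ac lists from 38995 to 41763. Activin library 2 had the smallest acetylated length of the H3K27ac libraries, 43.6 Mb against 49.2 to 51.8 Mb in the other 3. Of 7 gonadotrope marker genes, Gnrhr, Lhb and Nr5a1 had H3K27ac within 5 kb of the start in all 4 libraries, Cga had it in the activin libraries alone, and Fshb, Isl1 and Pitx1 had none in any. None of 9 markers of other pituitary lineages had such a peak in all 4 libraries, 8 had none, and Neurod1 had one in 3.

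Activin is a ligand of the TGF-β family. Its receptors phosphorylate SMAD2 and SMAD3, which then enter the nucleus and bind DNA together with other factors, and in gonadotropes this pathway and FOXL2 drive the gene of the FSH β subunit. Steroid receptors bind DNA as dimers after their hormone has reached them. Retinoid X receptors are the shared partners of many other nuclear receptors, among them those for retinoic acid, thyroid hormone and vitamin D. Estrogens, progestins and glucocorticoids all act on the gonadotrope and change its gonadotropin output.

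Promoter letters are shown for 4 genes, Esr2 and Rxra because the comparisons turn on them, Rxrb for an acetylated region over part of its promoter and Esr1 for a forkhead and a SMAD match in a short stretch. RefSeq's promoter table (GRCm38.p6) matched 7 of the 8 genes, all but Nr3c1, and the 250 bases before each start were searched on both strands for forkhead GTAAACA and GTCAACA, the SMAD palindrome GTCTAGAC, the SMAD element CAGACA, the palindromic estrogen response element, a steroid receptor element ACANNNTGT, the direct repeat bound by retinoid X receptors (DR1) and the GC box GGGCGG. The Esr1 stretch (chr10:4611739-4611758, plus strand, bases -250 to -231 from the start) holds a forkhead match and the SMAD palindrome, both in capitals:
Esr1: GTCAACAtgttcGTCTAGAC
Of 32851 promoter windows, each searched over the 250 bases before its start, 2.07% held GTCAACA and 0.167% held GTCTAGAC. No region of any target overlapped this stretch, and the nearest FOXL2 region began 17.6 kb away. The Esr2 stretch (chr12:76177260-76177509, minus strand, bases -250 to -1) held no match to any of these motifs:
Esr2: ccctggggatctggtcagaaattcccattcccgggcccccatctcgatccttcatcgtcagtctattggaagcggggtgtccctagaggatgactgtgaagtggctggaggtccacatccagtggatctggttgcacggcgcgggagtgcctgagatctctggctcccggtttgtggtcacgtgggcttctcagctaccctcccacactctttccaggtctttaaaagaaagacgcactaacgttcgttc
No region overlapped it either, and the nearest regions were 6.55 kb (H3K27ac), 6.85 kb (FOXL2) and 12.8 kb (SMAD2/3) away. The Rxra stretch (chr2:27677062-27677089, plus strand, bases -139 to -112) holds a GC box at each end, in capitals, and lay 0.073 kb from an acetylated region present in all 4 libraries:
Rxra: GGGCGGggcgcgcaccggttgcGGGCGG
The Rxrb stretch (chr17:34031691-34031811, plus strand, bases -121 to -1) holds a GC box, in capitals. The searched window reached back to base -250 and held a further GC box, not shown, at bases -136 to -131. That further GC box lay within an acetylated region present in all 4 libraries. The region covered the upstream part of the window, overlapped only the upstream edge of the stretch shown and ended before the GC box in it:
Rxrb: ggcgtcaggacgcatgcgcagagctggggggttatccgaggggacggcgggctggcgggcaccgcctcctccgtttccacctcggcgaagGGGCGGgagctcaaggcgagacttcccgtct
The GC box was common, with a match in 32.7% of all promoter windows. Letters not shown held a GTAAACA match in the other Rxrb window (3.17% of all windows) and CAGACA matches in another window each of Rxrg and Esr1 (17.1% of all windows). They also held GC boxes in the windows of Nr3c2 and Pgr, in the other Rxrb window and elsewhere in the Rxra and Rxrb windows shown in part. A match is a description of these letters and not a binding site.

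The first question was where SMAD2/3 stood near these genes before and after activin. All 11 SMAD2/3 regions belonged to Esr2, Nr3c1 and Rxra, and no region was assigned to Esr1, Pgr, Nr3c2, Rxrb or Rxrg. The vehicle libraries held 2 and 0 peaks at the 8 genes and the activin libraries held 10 and 8. Of the 11 regions, 10 lay upstream of the start and 9 had no vehicle peak. A peak in both activin libraries and in neither vehicle library (called activin-only from here on) was found in 5 of 11, against 54.1% of all SMAD2/3 regions within 100 kb of a start. None was found in both vehicle and neither activin library or in all 4 libraries, against 0.0266% and 1.54%. Of protein-coding genes, 7.31% had a SMAD2/3 region in both activin libraries, and of the 8 receptor genes 3 had one.

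The strongest of these sites lay upstream of Esr2, which encodes estrogen receptor β. It spans chr12:76190293-76190684 in GRCm38/mm10, an intergenic position 13.2 kb upstream of the start. No peak was called there in either vehicle SMAD2/3 library, and the authors' fold enrichment (linear, over an undescribed background) was 26.4 and 28.2 in the activin libraries, 27.3 ± 1.26 (SD, n = 2). Within its own list the peak took place 53 of 7784 and place 39 of 5970 by −log10 q. Its percentile rank, on which 100 is the strongest peak of a list, was 99.3 and 99.4.

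FOXL2 and H3K27ac at this Esr2 site had the same pattern of calls. The FOXL2 region (chr12:76190284-76190678) had no vehicle peak and a fold enrichment of 17.5 and 20.2 with activin, at percentile ranks of 85.0 and 89.9. The SMAD2/3 and FOXL2 summits of like-numbered activin libraries lay 14 and 44 bp apart. The H3K27ac region (chr12:76190456-76191822) had no vehicle peak and a fold enrichment of 6.43 and 6.73 with activin, at ranks of 92.8 and 92.3. All 3 targets were thus called at this position in every activin library and in no vehicle library.

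A second Esr2 site, at chr12:76193521-76194025 and 16.5 kb upstream, had SMAD2/3 folds of 9.10 and 10.3 with activin and no vehicle peak. Here FOXL2 was already called in the vehicle libraries. Its fold there was 3.20 and 2.87 with vehicle against 9.82 and 4.70 after activin, and its percentile rank was 4.68 and 3.57 with vehicle against 69.9 and 40.1 after activin. The vehicle and activin ranks did not overlap, while the activin libraries lay far apart. Another site 27.1 kb upstream was called for SMAD2/3 in activin library 2 alone, at a fold of 3.78, and lay in intron 8 of 9 of the neighbouring gene Tex21. FOXL2 was activin-only there, at folds of 4.95 and 4.97.

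**Figure D1:**
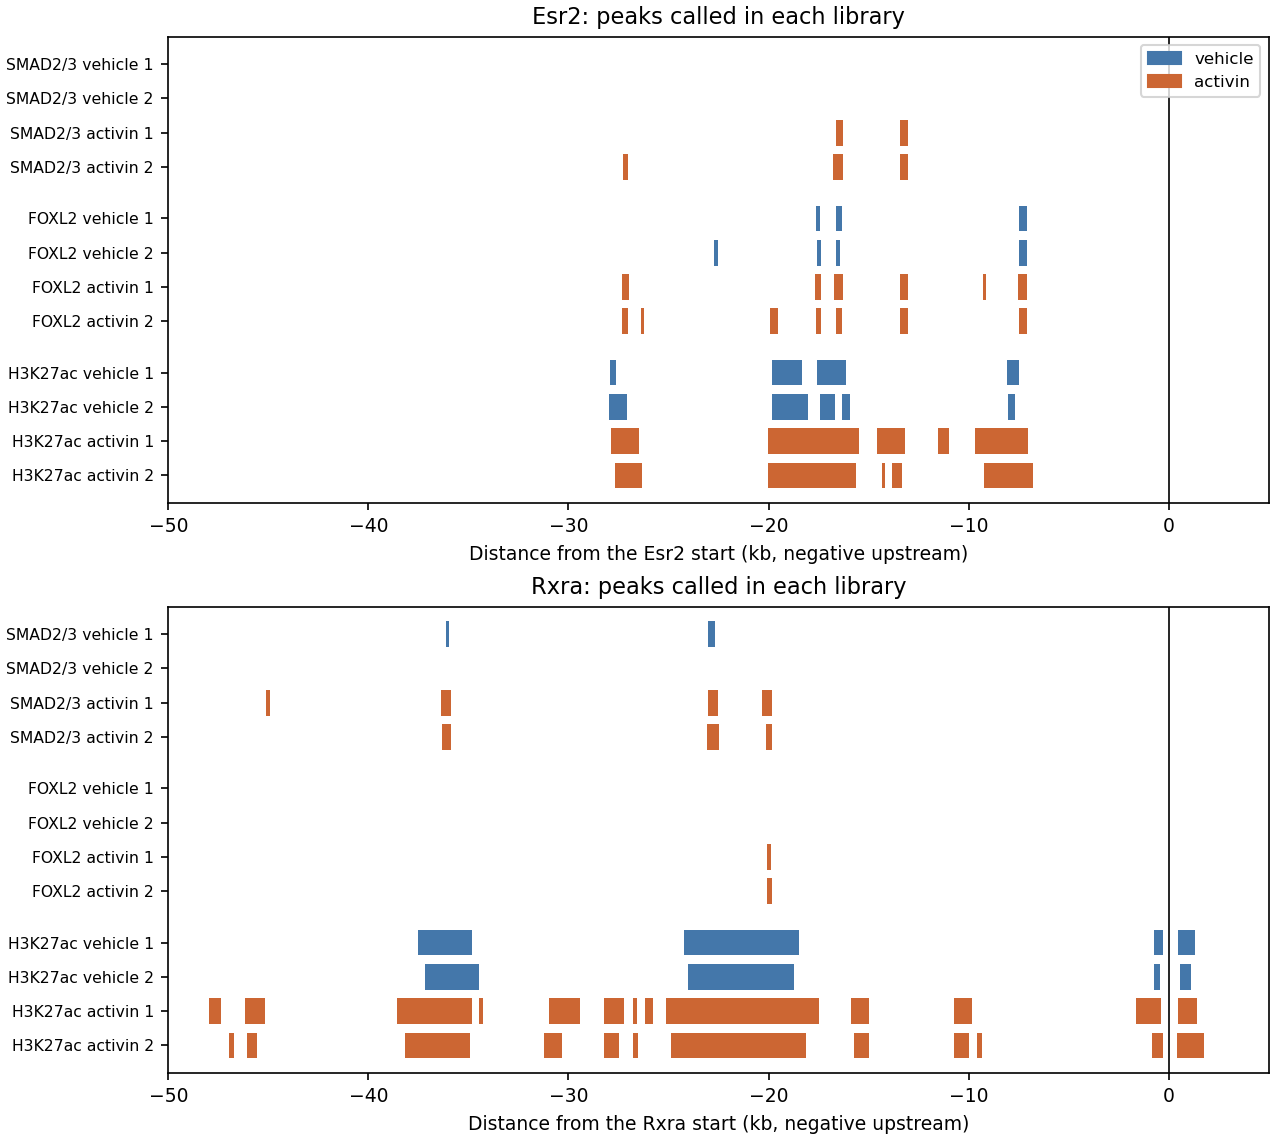
Peaks called in each of the 12 libraries from 50 kb upstream to 5 kb downstream of the Esr2 and Rxra starts, drawn to scale as bars along the distance from the start in kb (blue vehicle, orange activin; every peak is drawn, whatever gene it was assigned to). At Esr2 13.2 kb upstream all 6 activin libraries and no vehicle library have a SMAD2/3, FOXL2 or H3K27ac peak, while at Rxra the FOXL2 rows are empty apart from a narrow activin peak 19.9 kb upstream.

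H3K27ac around Esr2 was more widely called after activin. The acetylated length assigned to the gene was 3.86 and 4.42 kb with vehicle against 11.0 and 9.22 kb after activin, 2.44 times as much on average. The groups did not overlap, and the same was true in that direction for 21.1% of 8443 protein-coding genes with acetylation in all 4 libraries, and in the opposite direction for 31.8%. All 3 acetylated Esr2 regions found in every library ranked higher in both activin libraries. The region 8.37 kb upstream had percentile ranks of 4.81 and 25.0 with vehicle against 79.5 and 79.1 after activin. The region 27.2 kb upstream had ranks of 3.06 and 27.3 with vehicle against 59.3 and 58.2 after activin. The region 17.8 kb upstream was already near the top of its lists with vehicle, at 89.8 and 88.5, and stood at 93.6 and 91.9 with activin. No acetylated region overlapped the 250 bases before the Esr2 start.

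The other Esr2 FOXL2 regions were more alike between treatments. The strongest pair lay downstream of the start, 10.3 and 11.1 kb from it, with folds of 12.4 to 19.2 in the 8 values. Their ranks with vehicle and with activin overlapped. The same held for the region nearest to the start, 7.29 kb upstream, whose ranks were 60.3 and 69.6 with vehicle against 58.4 and 75.2 after activin. In all, 11 FOXL2 regions were assigned to Esr2, of which 5 were found in every library, 2 were activin-only and 4 were called in a single library each.

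The nearest-start rule leaves out much of the Esr2 neighbourhood. Within 100 kb of the start, 5 further SMAD2/3 regions, 26 FOXL2 regions and 11 H3K27ac regions carried the name of another gene, most of the FOXL2 and H3K27ac ones that of the predicted gene Gm7862 (18 and 7). Among these was a SMAD2/3 region inside Esr2 itself, in intron 6 of 7 (chr12:76132480-76132816). Its fold was 6.04 in vehicle library 1, with no peak in vehicle library 2, and 9.82 and 13.6 with activin. FOXL2 was called there in all 4 libraries and H3K27ac was activin-only. Counting all regions in the window raised the SMAD2/3 activin-only count at the 8 genes from 5 to 8.

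Rxra, the gene of retinoid X receptor α, had 5 SMAD2/3 regions, and 2 of them carried the only vehicle peaks assigned to any of the 8 genes. The strongest, at chr2:27654190-27654765 and 22.8 kb upstream, had a fold of 6.89 in vehicle library 1 and no peak in vehicle library 2. With activin the folds were 16.7 and 19.9, 18.3 ± 2.21 (SD, n = 2). The peak took place 73 of 605 with vehicle, and places 69 of 7784 and 37 of 5970 with activin. The site thus stood among the strongest SMAD2/3 peaks after activin while also being called in the longer vehicle list.

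No FOXL2 peak of any library overlapped this Rxra site. With activin the nearest FOXL2 summit was 2.85 and 2.86 kb away. Of the 4509 SMAD2/3 regions within 100 kb of a start that both activin libraries held, 44 ranked as high as this one or higher by mean activin rank, itself included, and it was the only region of the 44 without FOXL2 in any library. Among the 100 regions of highest mean rank, 2% had none. Of all 4509 regions, 12.1% had no FOXL2 peak in any library.

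The 3 other upstream Rxra sites differed in strength. At chr2:27656932-27657443, 20.0 kb upstream, SMAD2/3 was activin-only with folds of 11.6 and 13.2. An activin-only FOXL2 region lay within it with summits 19 and 17 bp from those of SMAD2/3, but its folds were only 2.56 and 2.85 and its percentile ranks 2.08 and 7.34. At chr2:27640875-27641396, 36.1 kb upstream, the SMAD2/3 fold was 5.09 in vehicle library 1 and 10.9 and 8.80 with activin, and no FOXL2 peak overlapped it. The site 45.0 kb upstream was called in activin library 1 alone at a fold of 5.75, as was a site 87.2 kb downstream at a fold of 3.37. The weak region at 20.0 kb was the sole FOXL2 region assigned to Rxra.

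**Figure D2:**
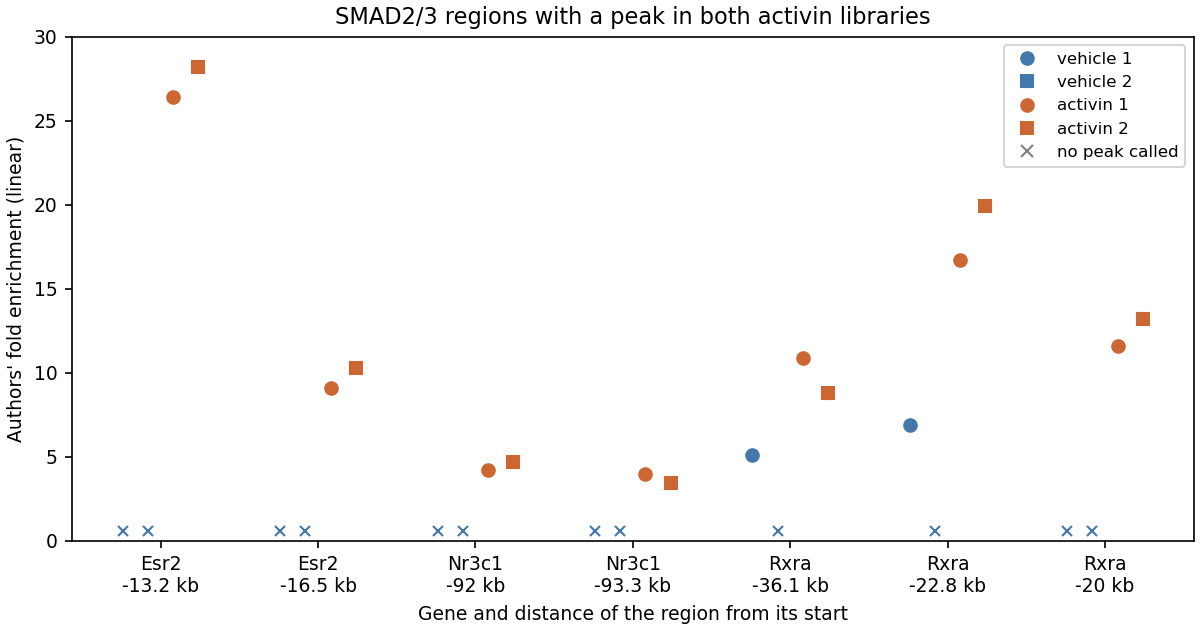
Authors' linear fold enrichment (vertical axis) at the 7 SMAD2/3 regions called in both activin libraries, by gene and distance from its start in kb (horizontal axis), with circles for library 1, squares for library 2 and crosses where no peak was called. The Esr2 site at -13.2 kb stands highest at 26.4 and 28.2, and only the Rxra sites at -36.1 and -22.8 kb have a vehicle peak.

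Acetylation at Rxra was the most extensive of the 8 genes, with 20 of the 37 H3K27ac regions. The strong SMAD2/3 sites at 22.8 and 20.0 kb lay in 1 acetylated region of 7643 bp (chr2:27652136-27659778). Its fold was 5.44 and 5.09 with vehicle against 9.71 and 9.37 after activin, and its percentile rank was 87.8 and 88.0 with vehicle against 99.6 and 99.5 after activin. The region around the 36.1 kb site had ranks of 82.2 and 82.8 with vehicle against 97.2 and 97.7 after activin. The region 0.566 kb before the start had ranks of 18.5 and 43.6 with vehicle against 68.5 and 77.2 after activin, and that 0.948 kb after it had 76.5 and 81.0 against 93.6 and 89.0. In each of these 4 regions both activin libraries stood above both vehicle libraries.

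A region far inside the gene went the other way. The acetylated region of 8119 bp that lay 63.6 kb downstream of the Rxra start had ranks of 88.2 and 88.7 with vehicle against 81.9 and 79.3 after activin. A different region, 87.1 kb downstream and past the RefSeq end of the gene, ranked higher in both activin libraries. Its ranks were 78.7 and 79.1 with vehicle against 91.5 and 92.2 after activin. A SMAD2/3 peak of activin library 1 overlapped the region at 87.1 kb. Of the 6 Rxra acetylated regions found in every library, 5 ranked higher in both activin libraries and 1 ranked higher in both vehicle libraries.

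The acetylated length assigned to Rxra was 18.4 and 16.3 kb with vehicle against 30.8 and 25.6 kb after activin, a ratio of mean lengths of 1.63, which 8.28% of the 8443 genes matched or passed. Most of the added length lay upstream of the start, where it was 8.86 and 8.25 kb with vehicle against 19.4 and 14.9 kb after activin. Of the 7 activin-only Rxra regions, 1 lay 78.8 kb downstream and the others upstream. All 7 were weak, with folds between 2.66 and 3.41.

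**Figure D3:**
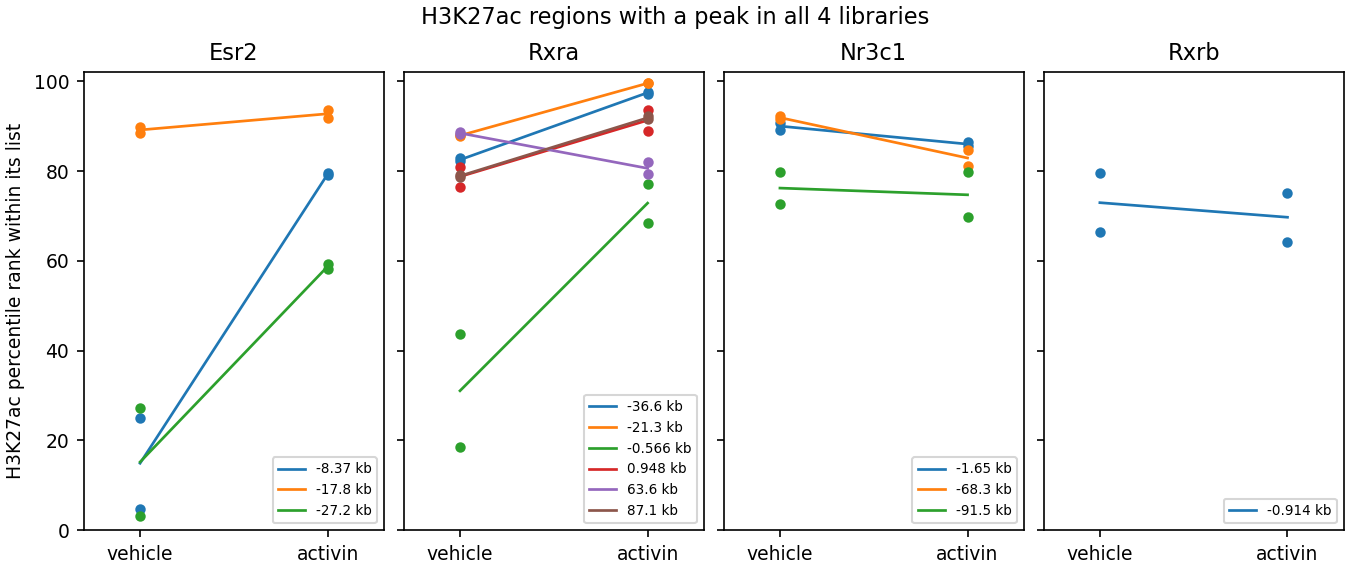
Percentile rank of each H3K27ac region within its own list (vertical axis, 100 the strongest) with vehicle and with activin, for regions found in all 4 libraries at Esr2, Rxra, Nr3c1 and Rxrb. Points are libraries, lines join the means of 2 libraries, and colours give the distance from the start in kb. All 3 Esr2 regions and 5 of 6 Rxra regions have both activin points above both vehicle points, while no Nr3c1 or Rxrb region has.

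Nr3c1 encodes the glucocorticoid receptor and had most of the FOXL2 regions, 27 of 44, of which 17 were found in every library, against 47.1% of all FOXL2 regions near a start. Its 3 SMAD2/3 regions were far from the start and weak. At 92.0 kb upstream the folds were 4.22 and 4.71 with activin and at 93.3 kb upstream 3.99 and 3.46, with no vehicle peak at either. A site 67.9 kb upstream was called in activin library 1 alone, at a fold of 4.68. At 92.0 kb upstream FOXL2 was called in all libraries, at ranks of 78.9 and 84.5 with vehicle against 67.7 and 69.0 after activin, and the summits of SMAD2/3 and FOXL2 were 21 and 0 bp apart. No FOXL2 peak overlapped the site at 93.3 kb.

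The FOXL2 regions of Nr3c1 differed by side of the start. Of 10 regions downstream of the start and found in every library, 6 ranked higher in both activin libraries and none ranked higher in both vehicle libraries. Of 7 such regions upstream, 1 ranked higher in both activin libraries and 4 in both vehicle libraries. Over all FOXL2 regions found in every library, 29.7% ranked higher in both activin libraries and 28.2% in both vehicle libraries. The split by side was noticed in these data and was not tested. RefSeq places the 5′ end of Nr3c1 a further 29533 bp upstream of the start used by the annotation tables, so the regions from 6.70 to 14.1 kb upstream lie within the RefSeq gene.

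Single Nr3c1 regions show the size of these differences. The strongest, 9.60 kb downstream, had ranks of 89.3 and 86.3 with vehicle against 94.7 and 87.3 after activin, which overlap. At 24.9 kb downstream the fold was 13.3 and 5.62 with vehicle against 17.6 and 15.3 after activin, and the ranks were 76.3 and 39.8 against 86.0 and 83.3. The vehicle libraries differed here by far more than the activin libraries did. At 6.70 kb upstream the fold was 8.06 and 8.87 with vehicle against 5.42 and 4.29 after activin, and the ranks were 54.7 and 69.4 against 40.0 and 15.6. The regions at 24.9 and 6.70 kb were picked for the size of their difference, after their values were seen.

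**Figure D4:**
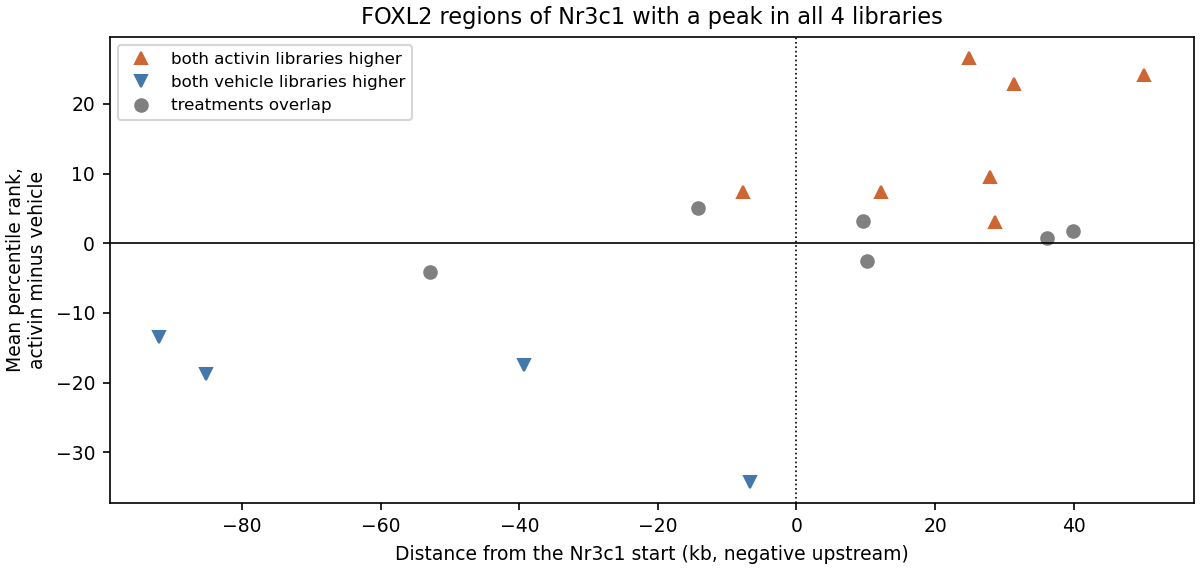
Difference in mean FOXL2 percentile rank (activin minus vehicle, 2 libraries each, vertical axis) for the 17 Nr3c1 regions found in all 4 libraries, by distance from the annotated start in kb (horizontal axis, negative upstream). Upward triangles have both activin libraries higher, downward triangles both vehicle libraries, and grey points overlap. All 4 downward triangles lie upstream, and 6 of the 7 upward triangles lie downstream.

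None of the 3 acetylated Nr3c1 regions found in every library ranked higher in both activin libraries, unlike those at Esr2 and most at Rxra. The region 1.65 kb upstream had ranks of 90.8 and 89.2 with vehicle against 86.5 and 85.5 after activin. The region 68.3 kb upstream had 92.3 and 91.5 against 84.7 and 81.1. The remaining region found in every library, 91.5 kb upstream and overlapping the SMAD2/3 sites there, had ranks of 79.7 and 72.7 with vehicle against 69.7 and 79.7 after activin. The acetylated regions nearest to the Nr3c1 start were called in vehicle library 1 and both activin libraries, not in vehicle library 2. At 0.402 kb upstream the rank was 31.0 with vehicle against 40.1 and 60.3 after activin. At 0.504 kb downstream it was 36.7 with vehicle against 31.2 and 41.9 after activin. The acetylated length of Nr3c1 was 8.36 and 8.15 kb with vehicle against 9.18 and 7.40 kb after activin, which overlap. The only vehicle-only region of the 37, meaning a peak in both vehicle and neither activin library, lay 13.2 kb upstream of Nr3c1 and had folds of 2.48 and 2.77. An activin-only Nr3c1 region lay 93.8 kb upstream with folds of 2.66 and 3.1, and it overlapped the SMAD2/3 site at 93.3 kb.

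The other steroid receptor genes had few assigned peaks. Esr1, which encodes estrogen receptor α, had a single FOXL2 peak 17.9 kb downstream, in vehicle library 1, at a fold of 5.68. Pgr had 1 FOXL2 region, 31.0 kb upstream and found in every library, with folds of 7.55 and 10.8 with vehicle against 7.53 and 10.0 after activin. Nr3c2 had 1 FOXL2 region in every library, 98.6 kb downstream, with folds of 9.84 and 8.35 against 10.5 and 6.71. The treatments overlapped at Pgr and at Nr3c2. None of these 3 genes had an assigned H3K27ac region. The nearest-start rule counts here too. Within 100 kb of the Pgr start, 8 further FOXL2 regions carried the name Gm16485. Within 100 kb of the Esr1 start, 4 H3K27ac regions carried the name Ccdc170. The Nr3c2 region was the member closest to the 100 kb limit, while a FOXL2 peak of vehicle library 1 at -141 kb of Nr3c1 and FOXL2 peaks of all 4 libraries 170 kb downstream of Esr1, at folds of 8.84 to 11.0, were the nearest peaks beyond it.

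Rxrb and Rxrg, the genes of retinoid X receptors β and γ, differed from Rxra. Rxrb had no assigned SMAD2/3 or FOXL2 region and 1 assigned H3K27ac region (chr17:34032354-34032949), with folds of 4.83 and 5.48 with vehicle against 5.28 and 4.67 after activin, which overlap. The deposited annotation placed it at the promoter of the neighbouring gene ENSMUSG00000024327. The acetylated region at the upstream edge of the Rxrb promoter stretch shown above carried the name Gm20427 and ended at chr17:34031701. The deposited annotation placed that region at the promoter of ENSMUSG00000039656, the identifier of Rxrb itself. The folds of this region were 5.49 and 4.83 with vehicle against 4.64 and 4.13 after activin. Within 100 kb of the Rxrb start, 11 FOXL2 and 12 H3K27ac regions carried the name of another gene. Rxrg had no SMAD2/3 or H3K27ac region. It had an activin-only FOXL2 region 28.5 kb upstream, at folds of 6.55 and 5.63, and a FOXL2 region 21.1 kb downstream with ranks of 40.5 and 3.36 with vehicle against 46.3 and 46.0 after activin, where the vehicle libraries lay far apart.

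Over the 8 genes, 6 of 44 FOXL2 regions were activin-only, against 8.72% of all FOXL2 regions near a start, and none was vehicle-only, against 3.25%. Of the 25 FOXL2 regions found in every library, 9 ranked higher in both activin libraries, against 29.7%, and 4 in both vehicle libraries, against 28.2%. Ranked by fold enrichment, 6 of 25 ranked higher in both activin libraries, against 27.4%, so the share lay above that of all regions with one measure and below it with the other. For H3K27ac, 9 of 37 regions were activin-only, against 5.82%, and 1 was vehicle-only, against 6.31%. Of these 9, 7 belonged to Rxra and 1 each to Esr2 and Nr3c1, and neighbouring regions of a gene are not independent. Only the Esr2 region kept the call when a peak had to have a −log10 q of at least 5. That was 1 of 37, against 0.291% of all regions at the same threshold. Of the 37, 13 were found in every library, against 47.1% of all H3K27ac regions near a start. Of these 13, 8 ranked higher in both activin libraries, against 26.5%, and 3 in both vehicle libraries, against 30.5%. All 8 of these belonged to Esr2 and Rxra. With every region centred within 100 kb of the 8 starts counted, whatever its nearest start, the count was 9 of 27, or 33.3% against 26.5%, near the share of all regions.

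FOXL2 found in every library was assigned to 5 of the 8 genes, against 36.2% of protein-coding genes, and such H3K27ac to 4 of 8, against 39.9%. The 7 SMAD2/3 regions called in both activin libraries were set against the other targets. FOXL2 found in both activin libraries overlapped 4 of 7, against 81.3% of all such SMAD2/3 regions, and 3 of 7 had no FOXL2 peak in any library. H3K27ac found in both activin libraries overlapped 7 of 7, against 78.3%. H3K27ac found in both vehicle libraries already overlapped 6 of these 7, against 66.3%. For FOXL2 found in both vehicle libraries the count was 2 of 7, against 72%. The activin SMAD2/3 lists were many times longer than the vehicle lists and their depth is unknown, so the part of depth in the missing vehicle peaks was not tested. An exact permutation test of 2 against 2 libraries cannot give a p under 0.333, so replicate spread is shown by the values alone.

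Other genes of the pathway were read from the same tables. A SMAD2/3 region in both activin libraries was assigned to 2 of 21 other nuclear receptor genes (Thra and Nr1h3) and to 3 of the 8 described here. The share of protein-coding genes with one was 7.31%. Among the other nuclear receptor genes the strongest, near the thyroid hormone receptor gene Thra, had folds of 11.3 and 9.74. Of 14 genes of coactivators and corepressors, which receptors recruit to chromatin, Ncoa3, Nrip1 and Crebbp had a region, and the highest ranked, near Ncoa3, had folds of 7.25 and 6.45. Of 7 genes of chaperones that hold unliganded steroid receptors, Fkbp5, Hsp90aa1, Hsp90ab1 and Ptges3 had a region, the highest ranked at Hsp90aa1 with folds of 8.60 and 7.98. Of 10 hormone response genes 3 had one (Tsc22d3, Zbtb16 and Dusp1), as did 1 of 11 retinoid handling genes (Cyp26b1, which encodes an enzyme that degrades retinoic acid). Activin-only H3K27ac was assigned to none of the 21 other receptor genes, to 3 of 14 coregulator genes and to 3 of the 8 genes described here, against 5.35% of protein-coding genes. The 8 genes were chosen by results of these same lists, so no comparison of their shares with those of the other genes can be drawn.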

How the data were processed

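Bowtie2, MACS2 and HOMER and the builds GRCm38 and mm10 are named in the submitters' processing notes, without versions or roles. Thresholds and the use of the control are not given in the sources used here. The deposited peak names show 1 peak call per library, with none pooled. The values used were the authors' fold enrichment, a linear ratio, the authors' −log10 p and −log10 q, and a deposited score, a whole number cut from 10 times the −log10 q. Genes and distances come from HOMER's annotatePeaks, per the file headers. The lowest −log10 q was 1.3 to 1.78 (SMAD2/3), 1.3 to 1.33 (FOXL2) and 1 to 1.01 (H3K27ac).

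Peaks of 4 libraries were merged into regions at an overlap of 1 bp, with the strongest peak of each library giving its value, in Python 3.11.15 with pandas 2.3.3. The merging was tested on simulated data. Coordinates count from 1, and distances are the deposited ones. Promoter sequences are RefSeq's. No genome was used, so the sequences of distal sites are not shown.

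Members, lists and the named regions were chosen with earlier results of these data known. The rule named all SMAD2/3 regions of the 8 genes, FOXL2 and H3K27ac regions overlapping them, the highest ranked and the nearest region of each target, the highest ranked activin-only and vehicle-only regions, and the highest ranked gene of each list. Further regions were named to account for every gene. Alternatives covered the distance limit, assignment, threshold, list length, overlap, ranking measure, replicate block and each library left out.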

Additional observations from a re-analysis of the deposited data

How the results depend on the processing

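Of 103 alternative settings over 13 results, 71 stayed within the range counted as unchanged and 32 moved, counts being compared by their size alone. Read against the share over all regions, 6 of 93 settings of the 11 counts changed side. SMAD2/3 activin-only regions, below that share in the report, were above it without vehicle library 1 (63.6% against 58.7%). With lists of equal length they were above it as 1 of 2 regions (50% against 10.9%). FOXL2 activin-only regions went below it without activin library 2 (16.7% against 16.9%), as did FOXL2 regions ranked higher with activin when ranked by fold (24% against 27.4%) or at a −log10 q of at least 5 (28.6% against 29.5%). H3K27ac regions ranked higher with vehicle stood at 30% against 29.9% at that threshold. With a limit of 50 kb, 3 of 7 SMAD2/3 regions were activin-only (against 54%). At that limit 2 of 20 FOXL2 regions (against 28.1%) and 1 of 9 H3K27ac regions (29.8%) ranked higher with vehicle. With every region centred within 100 kb counted, 8 of 16 SMAD2/3 regions were activin-only (50% against 54.1%). So were 11 of 98 FOXL2 regions (11.2% against 8.72%). Vehicle-only FOXL2 regions were 3 of 98 (3.06% against 3.25%). Of 50 FOXL2 regions, 18 ranked higher with activin (36% against 29.7%) and 10 with vehicle (20% against 28.2%). For H3K27ac, 7 of 27 ranked higher with vehicle (25.9% against 30.5%). A −log10 q of at least 5 left 3 of 44 FOXL2 regions activin-only (6.82% against 5.86%). Of 37 H3K27ac regions it left 1 activin-only (2.7% against 0.291%) and 0 vehicle-only (against 0.262%). Of 10 H3K27ac regions found in every library at that threshold, 5 ranked higher with activin (50% against 28.3%). Lists of equal length left 3 of 40 FOXL2 regions (against 6.71%) activin-only. Joining peaks at a reciprocal overlap of 50% made 1 of 53 FOXL2 (against 3.62%) and 2 of 53 H3K27ac regions (6.25%) vehicle-only. FOXL2 of both vehicle libraries overlapped 2 of the 7 SMAD2/3 regions (against 72%). Ranked by fold, the Esr2 site had a mean percentile of 99.9 and the Rxra site 98.7. Leaving out 1 library at a time gave 5 to 8 activin-only SMAD2/3 regions (8 of 10 without activin library 2, against 92.4% of all regions), 6 to 8 activin-only and 0 to 4 vehicle-only FOXL2 regions (4 of 43 without vehicle library 1, against 9.79%), and 10 to 14 activin-only (14 of 34 without activin library 2, against 16.5%) and 1 to 3 vehicle-only H3K27ac regions (3 of 37 without vehicle library 2, against 15%). FOXL2 regions ranked higher with activin numbered 12 to 13 and with vehicle 4 to 8, with 8 of 26 without vehicle library 1 (against 40.8%) or activin library 2 (37.9%) and 7 of 25 without activin library 1 (38.5%). H3K27ac regions ranked higher with activin numbered 8 to 9 and with vehicle 4 to 5. FOXL2 overlapped 5 of 8 and 4 of 10 SMAD2/3 regions, and H3K27ac 8 of 8 and 9 of 10. The mean percentile of the Esr2 and Rxra sites stayed at 99.1 to 99.4. Fewer libraries make a call easier, which applies to each of these counts, and the cause of the other shifts was not tested. With the replicate block, pairing like-numbered libraries, 11 of 25 FOXL2 regions ranked higher with activin (against 36.3%) and 5 with vehicle (35.1%). For H3K27ac these were 8 (against 31.9%) and 3 (36.5%) of 13. Replicate differences of the treatments correlated at 0.13 over 58444 FOXL2 regions and -0.03 over 24356 H3K27ac regions, and with 2 pairs and no shared batch in the labels the libraries share only a number. The block was not run for peak presence, overlaps or single sites. Unknown depth limits every statement on a missing peak.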
